A study of Arabidopsis thaliana with 9 samples.

Results

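A set of Arabidopsis genes stood at lower transcript levels in roots fixed right after a short microgravity phase of a jet flight than in roots fixed on the ground or later in the same flight. The set was chosen from the measured values themselves. A gene entered when its first-actuated mean lay at least 0.8 below its ground mean on the log2 scale, and its last-actuated mean within 0.4 of the ground mean. The ground mean also had to reach 3, and all 3 first-actuated values had to lie below the other 6. Of 16722 probe sets with 1 gene name, which stand for 16548 genes, 55 met these conditions. AT4G39675, AT4G27450 and AT1G49570 were left out by name, and AT3G28900, which encodes a cytosolic ribosomal protein, was left out with its class, so 51 genes remained. Since the rule used all 9 arrays and every pair of tubes, the levels and differences of the members are a description and not the outcome of a test. Counts of members that a fit over all genes called are given once, beside the share of all genes called, and support nothing.

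All roots came from 10-day-old seedlings of the Wassilewskija background, grown in constant light, that overexpressed a 14-3-3κ:GFP fusion from the cauliflower mosaic virus 35S promoter. That promoter is active in most plant cells, and every group carried the transgene, so no wild-type roots entered. The seedlings were sealed in 3 tubes holding the fixative RNAlater. One tube was held and actuated on the ground while the jet flew, and gave the ground roots. On board, both other tubes went through a climb at 4 g of about 30 s, a microgravity phase of about 10 s and a brief spell of hyper-g. Whether that spell came before or after the first fixation is not given here. The first-actuated tube was fixed right after microgravity, and the last-actuated tube following about 1.5 min more of level flight. Whole roots of each tube were split into 3 replicates, hence 9 arrays. With 1 tube per condition, a tube's own effect and the condition's effect cannot be told apart, and p-values measure the spread within a tube.

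The amount of an mRNA reflects its synthesis and its decay, and transcripts of many regulators turn over quickly. The set mixes several kinds of gene. RALF peptides are small secreted signals that bind receptor kinases of the FERONIA family at the cell surface and affect cell wall pH and growth. F-box proteins choose targets for ubiquitin-dependent breakdown, and SLY1 is the F-box protein through which gibberellin removes the DELLA growth repressors. XERICO is a RING-type protein whose overexpression raises abscisic acid levels, and MYBC1 is a MYB-like transcription factor known as a negative regulator of freezing tolerance. Only 9 of the 51 have a symbol in the gene table. Where a role is given for a locus without one, it is general knowledge of its protein family, and 14 members are described with no role. In whole roots, fewer cells of a type and less RNA per cell cannot be told apart.

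The array values are normalized log2 levels. The median of an array was 2.09 to 2.15, and the median gene mean over the 9 arrays was 2.15. Pearson correlations between arrays of a tube, taken across genes, were 0.976 to 0.984 on the ground, 0.990 to 0.991 in the first-actuated tube and 0.984 to 0.989 in the last-actuated tube. Of 20 root markers 3 were measured. EXPA7 and EXPA18, expansins of root hairs, stood on the ground at 4.88 ± 0.20 and 4.20 ± 0.25 (SD, n = 3), and UPB1, a root transcription factor, at 2.53 ± 0.50. In first-actuated roots they stood at 4.24 ± 0.34, 5.16 ± 0.32 and 2.01 ± 0.11, and limma called EXPA18 higher there than on the ground (adjusted p = 0.0203), a call lost in 4 of 9 fits without 1 array. All 3 had an unadjusted p under 0.05 in that comparison, as did 16.9% of all genes, with EXPA7 and UPB1 lower and EXPA18 higher. The part of such shifts in the members' values was not tested. Of 11 shoot markers, LHCB4.1 and RCA were measured, and limma called neither in any comparison, with 0 of them at an unadjusted p under 0.05 in first-actuated against ground roots. RCA was at 6.63 ± 0.20 on the ground, 6.67 ± 0.098 in first-actuated and 6.42 ± 0.048 in last-actuated roots. Of 153 measured cytosolic ribosomal protein genes, limma called 16 lower in first-actuated than in ground roots, where it called 1.67% of all genes lower, with a median difference of -0.29.

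Over the 51 members, the first-actuated mean lay below the ground mean by a median of 0.97 on the log2 scale, a 1.96-fold difference, and by 0.80 to 1.67 (1.74-fold to 3.17-fold). A difference of 1 or more was seen for 22 members. The median over all 16722 single-gene probe sets was 0.0095 for first-actuated minus ground and 0.026 for last-actuated minus ground. A limma fit over all genes at a Benjamini-Hochberg adjusted p under 0.05 called 49 of the 51 lower in first-actuated than in ground roots, where the same rule called 1.67% of all 16548 genes lower. The exceptions were AT1G53542 and rpl32. Between the flight tubes the fit called 30 of the 51 lower in first-actuated roots, against 0.985% of all genes, where 2.24% were called in either direction and 1.26% higher. Between last-actuated and ground roots limma called 0 of the 51, against 0.912% of all genes (0.332% lower and 0.58% higher), and 6 members had an unadjusted p under 0.05, as did 12.4% of all genes. Nothing is read from these counts, because the rule used each contrast and both flight comparisons share the ground arrays.

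**Figure D1:**
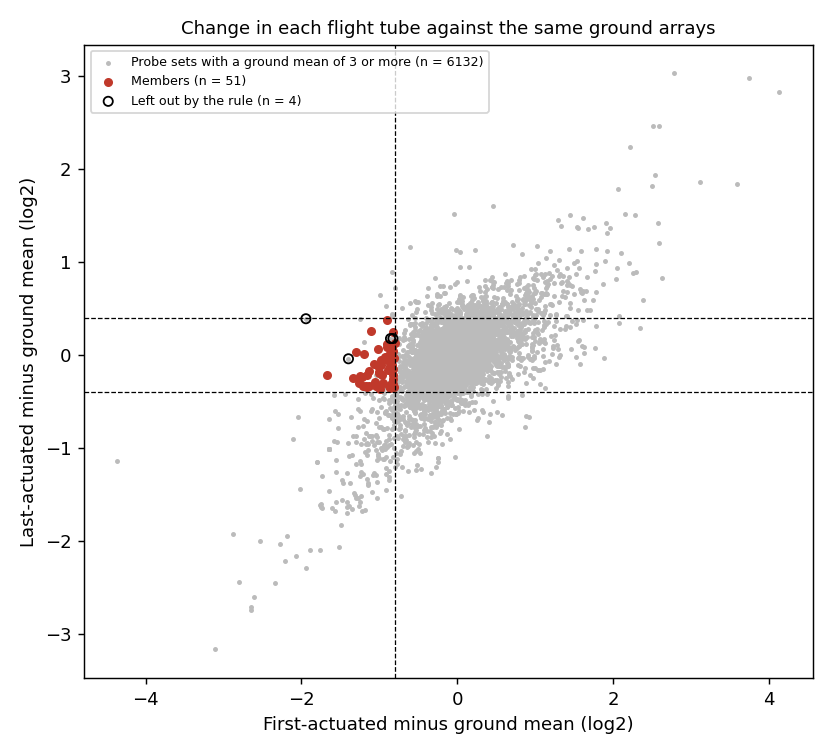
Difference between the mean of each flight tube and the mean of the same 3 ground arrays (log2), first-actuated on the x axis and last-actuated on the y axis, for 6132 probe sets with a ground mean of 3 or more (grey), the 51 members (red) and the 4 genes left out (open circles). Dashed lines mark the rule's limits of -0.8 and of 0.4 either way, and the members fill the band to the left of the first line by construction.

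**Figure D2:**
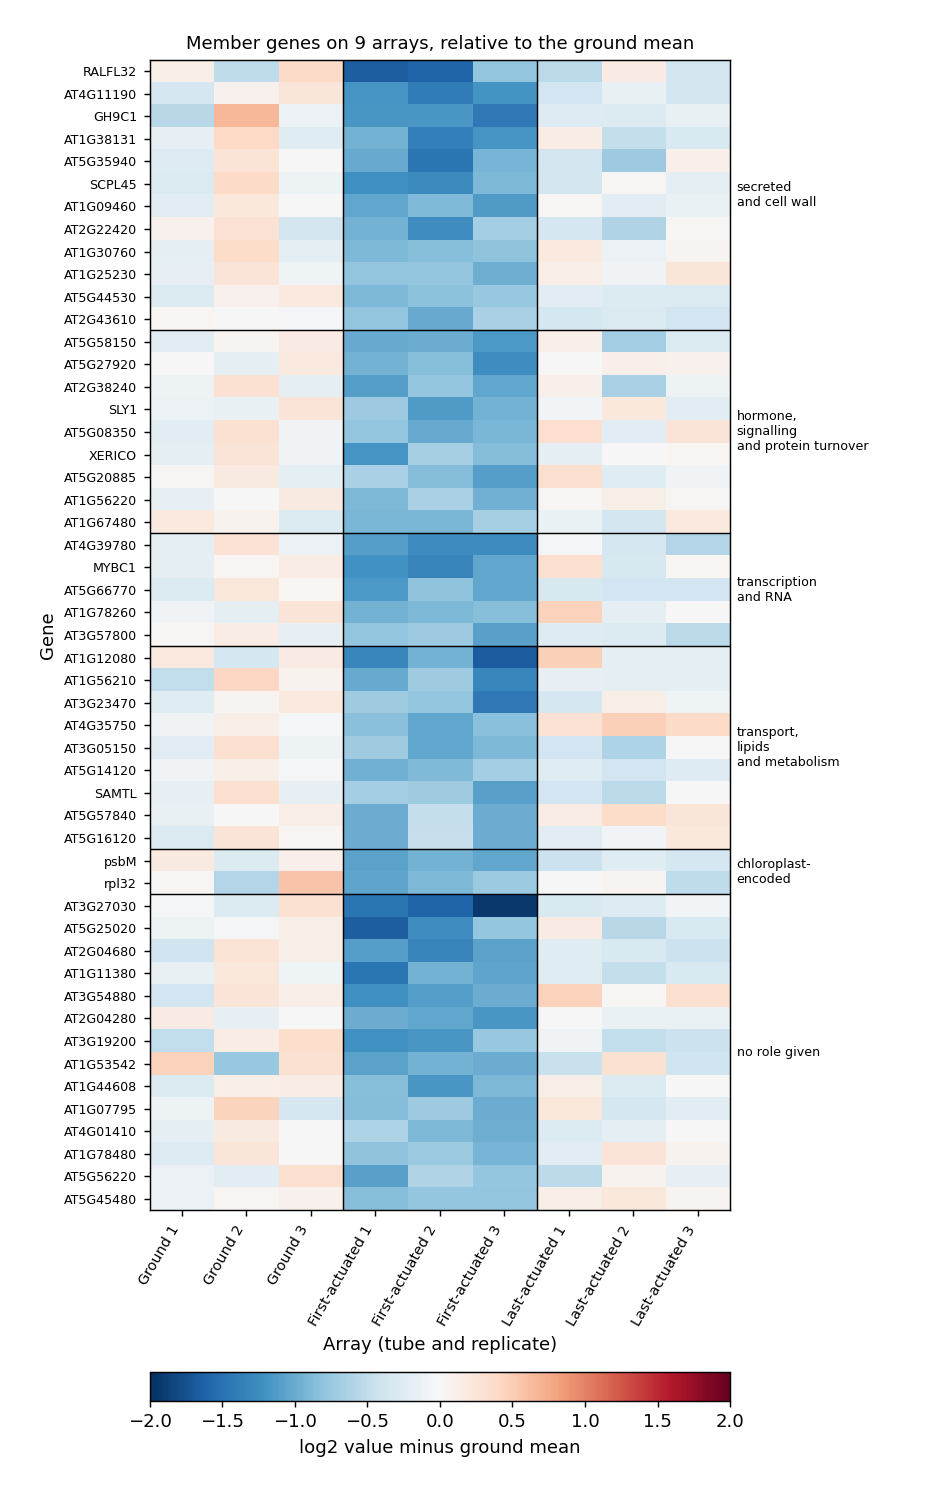
Level of each of the 51 members on each of the 9 arrays as the log2 value minus the gene's ground mean (colour), with genes in rows by role and arrays in columns by tube. The 3 first-actuated columns are blue in every row, as the rule demands, and the ground and last-actuated columns are pale with both signs.

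The largest difference was that of AT3G27030, a gene with no role given here. Its levels were 6.25, 6.00 and 6.58 on the 3 ground arrays, 4.81, 4.67 and 4.35 on the first-actuated arrays and 5.96, 6.02 and 6.22 on the last-actuated arrays. The first-actuated values were thus all more than 1 log2 unit below the lowest other value, while the ground and last-actuated ranges overlapped. The means were 6.28 ± 0.29, 4.61 ± 0.24 and 6.07 ± 0.14 (SD, n = 3), a 3.17-fold lower level than on the ground.

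Among 12 members for secreted or cell wall proteins, the median difference from the ground was -1.08, and the last-actuated mean lay below the ground mean for 10. RALFL32 encodes a RALF-type peptide ligand. It measured 5.18, 4.56 and 5.45 on the ground, 3.42, 3.47 and 4.27 in first-actuated roots and 4.53, 5.23 and 4.70 in last-actuated roots. First-actuated replicate 3 was well above the other two and came within 0.26 of the lowest last-actuated value, and the SD of that tube, 0.48, was the highest of the 51 members. Its mean was 2.54-fold lower than on the ground.

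GH9C1 encodes an endoglucanase of glycosyl hydrolase family 9, enzymes that cut glucan chains of the wall. Its ground values of 4.22, 5.45 and 4.67 were spread widely, while its first-actuated values of 3.62, 3.62 and 3.35 and its last-actuated values of 4.52, 4.50 and 4.63 were close together. The 2.38-fold lower mean therefore rests in part on ground replicate 2, and without that array the difference was -0.92 in place of -1.25. AT4G11190 encodes a dirigent protein, of a family that steers the coupling of lignin and lignan precursors. Its ground values were 5.16, 5.58 and 5.74, its first-actuated values 4.31, 4.1 and 4.30 and its last-actuated values 5.11, 5.34 and 5.12.

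AT1G38131, for a protein of the O-fucosyltransferase family, averaged 5.82 ± 0.35 on the ground, 4.66 ± 0.21 in first-actuated and 5.61 ± 0.32 in last-actuated roots. AT5G35940, for a jacalin-type mannose-binding lectin, was at 3.65 ± 0.27, 2.52 ± 0.28 and 3.32 ± 0.42 in the same order. SCPL45, for a serine carboxypeptidase-like protein, had the lowest ground mean of the set, 3.13 ± 0.35, and its first-actuated mean of 2.00 ± 0.20 lay below the median gene mean, where the size of a difference is uncertain without detection calls. AT1G09460, whose product carries the X8 domain that binds callose, was tight in each tube, at 7.50 ± 0.22, 6.48 ± 0.13 and 7.39 ± 0.13. AT2G22420, for a class III peroxidase, was at 4.24 ± 0.34, 3.29 ± 0.28 and 3.94 ± 0.32, with a gap of 0.076 between its highest first-actuated and its lowest other value. The remaining 4 of the 12, outside the rule for named genes and named after their values were seen, encode a berberine-bridge-like oxidase (AT1G30760), a purple acid phosphatase (AT1G25230), a subtilase (AT5G44530) and a chitinase-family protein (AT2G43610). They differed from the ground by -0.85 to -0.81.

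Members tied to hormones, signalling and protein turnover numbered 9, with a median difference of -0.90 from the ground. SLY1 was at 3.90, 3.86 and 4.27 on the ground, at 3.29, 2.88 and 3.06 in first-actuated roots and at 3.95, 4.22 and 3.8 in last-actuated roots. The last-actuated and ground values were interleaved, with means of 3.99 ± 0.21 and 4.01 ± 0.22, and the first-actuated mean of 3.08 ± 0.20 was 1.91-fold lower than that of the ground. XERICO, named after its values were seen, was at 4.25, 4.69 and 4.36 on the ground, at 3.25, 3.78 and 3.56 in first-actuated roots and at 4.25, 4.44 and 4.47 in last-actuated roots. Its last-actuated values all lay within the ground range or at its lower end, and its first-actuated mean was 1.87-fold below the ground mean.

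AT2G38240 encodes a dioxygenase of the jasmonate oxidase group, enzymes that hydroxylate and so inactivate jasmonic acid. Ground values were 6.87, 7.26 and 6.76, first-actuated values 5.85, 6.19 and 5.92, and last-actuated values 7.07, 6.32 and 6.86. Last-actuated replicate 2 was the low array there, only 0.12 above the highest first-actuated value. AT5G58150, for a leucine-rich repeat receptor-like kinase, had the same low last-actuated array, with 5.03, 4.23 and 4.67 in that tube against 3.92, 3.94 and 3.78 in the first-actuated tube and 4.71 to 5.10 on the ground. AT5G27920, for another F-box protein, was even across the ground (5.05, 4.88 and 5.25) and the last-actuated tube (5.06, 5.16 and 5.15), and lower in the first-actuated tube (4.12, 4.21 and 3.82).

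AT5G08350, for a GEM-like protein with a GRAM domain, of a family linked to abscisic acid responses, averaged 6.01 ± 0.27, 5.11 ± 0.12 and 6.14 ± 0.31 in ground, first-actuated and last-actuated roots. Named after their values were seen, the other 3 of this kind were AT5G20885, for a RING-type protein, AT1G56220, of the dormancy and auxin-associated family, and AT1G67480, for a kelch-repeat F-box protein. They lay 0.83 to 0.87 below the ground mean.

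**Figure D3:**
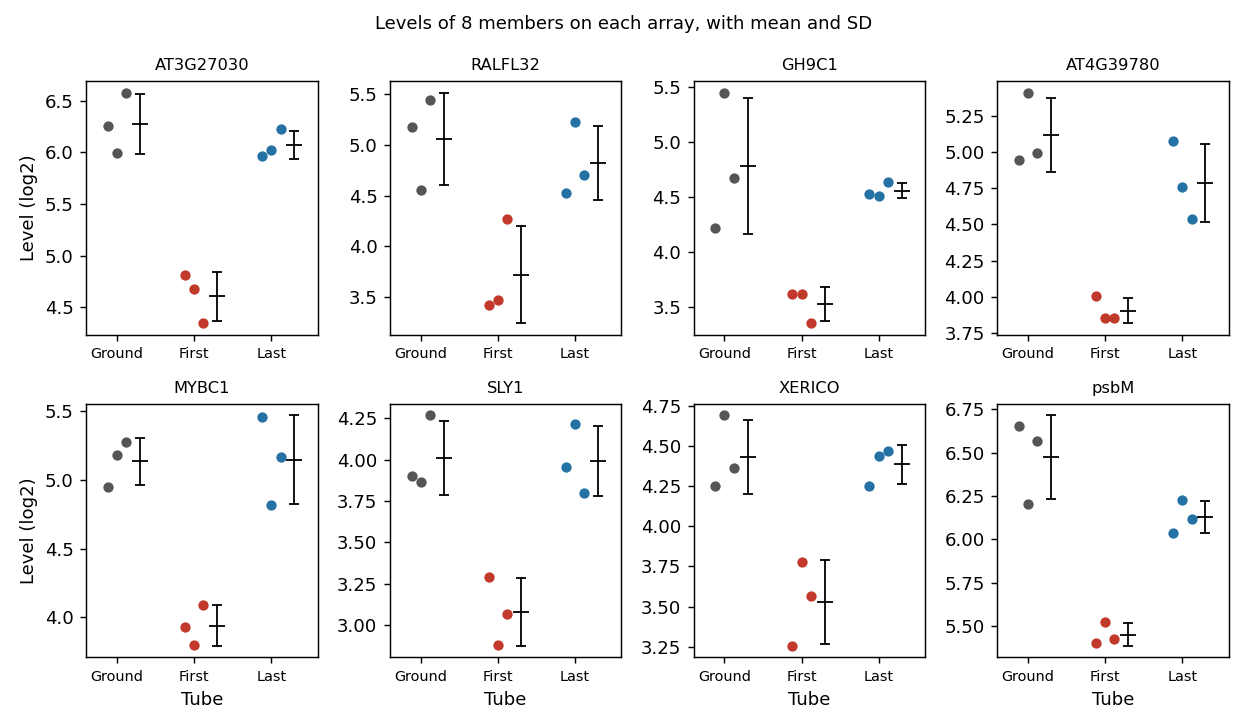
Levels (log2) of 8 members on each array (points), with the mean and SD of each tube (black bars, n = 3), in ground, first-actuated and last-actuated roots. Each panel has its own y axis, which does not start at 0, and levels are not compared between genes. RALFL32 shows the wide first-actuated spread of 0.48 and GH9C1 the wide ground spread of 0.62.

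Of the 5 members for transcription factors or RNA-binding proteins, AT4G39780, for an AP2/ERF factor of the DREB subfamily, showed the largest difference. It was at 4.94, 5.41 and 5.00 on the ground, at 4.01, 3.86 and 3.86 in first-actuated roots and at 5.07, 4.76 and 4.54 in last-actuated roots, a 2.31-fold lower first-actuated mean. MYBC1 was at 4.94, 5.18 and 5.28, then 3.93, 3.8 and 4.09, then 5.46, 4.81 and 5.17, and its last-actuated mean differed from the ground mean by 0.014. The gap between its first-actuated and its other values was 0.72. AT5G66770, for a GRAS family factor, had the lowest last-actuated mean relative to the ground of the 51, -0.37, and averaged 6.22 ± 0.25, 5.22 ± 0.17 and 5.85 ± 0.039. Its last-actuated values all lay below its ground values. AT1G78260, for a protein with an RNA recognition motif, and AT3G57800, for a bHLH factor, were named after their values were seen and stood 0.89 and 0.87 below the ground.

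A group of 9 members encodes proteins of transport, lipids and other metabolism. AT1G12080, for a vacuolar calcium-binding protein, had the largest difference. It was at 4.71, 4.16 and 4.67 on the ground, 3.21, 3.57 and 2.85 in first-actuated roots and 5.00, 4.32 and 4.32 in last-actuated roots, 2.47-fold lower than the ground in the first-actuated mean. AT4G35750, for a SEC14-like lipid transfer protein, was the member that stood highest in last-actuated roots relative to the ground. It measured 7.06, 7.26 and 7.09 on the ground, 6.30, 6.10 and 6.29 in first-actuated roots and 7.43, 7.61 and 7.52 in last-actuated roots, where all 3 values exceeded every ground value. Its last-actuated minus ground difference of 0.38 was just inside the limit of 0.4.

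AT1G56210, for a protein with a heavy-metal-associated domain, was at 4.91 ± 0.46, 3.90 ± 0.30 and 4.73 ± 0.017 in ground, first-actuated and last-actuated roots. AT3G23470, for a cyclopropane fatty acid synthase-like protein, was at 6.13 ± 0.23, 5.16 ± 0.39 and 6.03 ± 0.22. The other 5 were named after their values were seen. They encode a sugar transporter of the ERD6-like kind (AT3G05150), a major facilitator protein (AT5G14120), an alpha/beta hydrolase (AT5G16120), a member of the HXXXD acyltransferases (AT5G57840) and SAMTL, an S-adenosyl methionine transporter-like carrier, with differences of -0.88 to -0.81.

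Of the 2 chloroplast-encoded members, psbM, for a small subunit of photosystem II, was at 6.65, 6.20 and 6.57 on the ground, 5.40, 5.53 and 5.43 in first-actuated and 6.04, 6.23 and 6.12 in last-actuated roots. rpl32, for a plastid ribosomal protein, was named after its values were seen and was at 8.99, 8.37 and 9.53, then 7.92, 8.07 and 8.22, then 8.96, 9.01 and 8.46. For both, ground replicate 2 was the lowest ground array, as it was for 11 of the 51 members. With that array left out, the last-actuated minus ground difference was -0.48 for psbM and -0.45 for rpl32. Both lay beyond the limit of 0.4, so neither gene then met the rule. Of the 12 other chloroplast photosystem II genes measured, limma called 2 lower in first-actuated than in ground roots and 5 lower in last-actuated than in ground roots, at adjusted p under 0.05, where 1.67% and 0.332% of all genes were called lower. Their medians were -0.55 and -0.87, so as a group they stood further from the ground in the last-actuated tube, and each of the 5 calls was lost in 6 to 8 of 9 fits without 1 array. All 5 were kept in the fit without ground replicate 2. The 2 called lower in first-actuated roots were psbI (-0.91, limma, adjusted p = 0.0439) and psbF (-0.52, adjusted p = 0.0392), and each call was lost in 8 of the 9 fits without 1 array. The fit that kept both was the one without ground replicate 2 (limma, adjusted p = 4.95e-04 and 0.00556). Of the 5 other plastid large-subunit ribosomal protein genes, with medians of -1.15 and -1.37, 1 was called lower in first-actuated roots, and that call, of rpl14, was also lost in 8 of 9 fits. It too was kept without ground replicate 2 (-1.99, limma, adjusted p = 6.00e-05). On that array rpl14 was at 9.58, against 11.27 and 10.99 on the other ground arrays. Both lists were written after the members were known.

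The other 13 members with no role given, apart from AT3G27030, differed from the ground by -1.22 to -0.80. AT5G25020, the lowest of them relative to the ground, was at 6.37, 6.45 and 6.60 on the ground, 4.83, 5.22 and 5.70 in first-actuated and 6.63, 5.92 and 6.16 in last-actuated roots. AT2G04680 averaged 4.58 ± 0.35, 3.41 ± 0.14 and 4.25 ± 0.097, and AT1G11380 5.59 ± 0.21, 4.44 ± 0.28 and 5.24 ± 0.12. AT3G54880 had higher last-actuated than ground levels in the mean (7.55 ± 0.22 against 7.29 ± 0.34) and stood at 6.18 ± 0.12 in first-actuated roots. AT2G04280 was at 5.18 ± 0.16, 4.12 ± 0.083 and 5.09 ± 0.084, AT3G19200 at 7.02 ± 0.44, 5.97 ± 0.25 and 6.69 ± 0.22, and AT1G44608 at 4.20 ± 0.24, 3.22 ± 0.17 and 4.15 ± 0.20.

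AT1G53542 was the noisiest member on the ground. Its values there were 5.32, 4.1 and 5.17, so that ground replicate 2 came within 0.19 of the first-actuated values of 3.78, 3.91 and 3.87, and its last-actuated values were 4.41, 5.16 and 4.46. AT5G45480, the member nearest the limit, was the 1 member with a further single-gene probe set. On that probe set the level did not follow the rule: it was at 3.59 on the ground, 3.93 in first-actuated and 4.11 in last-actuated roots, against 6.96, 6.16 and 7.09 on the probe set that entered.

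The members varied among the replicates of a tube. Ground replicate 2 was the highest ground array for 27 of the 51 members (52.9%) and for 52.7% of the 6132 single-gene probe sets with a ground mean of at least 3. Ground replicate 1 was the lowest for 32 members (62.7%) and for 51.2% of those probe sets. Last-actuated replicate 2 was the lowest of its tube for 28 members (54.9%) and for 32.9% of those probe sets. Last-actuated replicate 1 was the highest for 24 members (47.1%) and for 32.3% of those probe sets. The rule used all of these arrays. The median SD within a tube was 0.25 on the ground, 0.17 in first-actuated and 0.21 in last-actuated roots for the members, against 0.21, 0.12 and 0.15 for those probe sets. The median member value minus its ground mean was -1.0, -0.94 and -0.99 on the 3 first-actuated arrays, where the rule itself asked for low values on each.

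The last-actuated values lay close to the ground values, within the limit the rule set. The last-actuated mean was below the ground mean for 37 of the 51 and above it for 14, with a median of -0.17 and a range of -0.37 to 0.38, while the median of the 6132 probe sets was -0.0092. The ranges of the last-actuated and ground values overlapped for 44 members (86.3%) and for 79.7% of those probe sets. All last-actuated values lay below all ground values for 5 members (9.8%) and above them for 2 (3.92%), against 10.4% and 9.85% of those probe sets. The rule's limit on the last-actuated mean bears on these counts. A high ground array moves both flight differences the same way, since they share the ground arrays.

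Relatives of the members were counted in lists written after the members were known. Of 14 other RALF peptide genes measured, which differed from the ground by -0.42 to 0.61 in first-actuated roots (median 0.055), limma called 0 in either flight tube against the ground. At an unadjusted p under 0.05 there were 0 in first-actuated and 1 in last-actuated against ground roots. Only RALFL18, RALFL31 and RALFL34 had a ground mean of 3 or more (3.43, 6.74 and 3.02). They differed from the ground by 0.61, 0.24 and -0.42 in first-actuated roots. The other RALF genes lay lower, where a fall could hardly show, so their lack of calls against the ground says little. RALFL33 was called lower in first-actuated than in last-actuated roots, a call lost in 8 of 9 fits without 1 array (adjusted p up to 0.156). Its levels of 1.33 and 1.88 lay below the median gene mean. Of 6 measured receptors and coreceptors of RALF peptides, limma called 0 in any comparison, with 0 at an unadjusted p under 0.05. FER, which encodes the receptor kinase FERONIA, was at 8.20 ± 0.26 on the ground and 8.29 ± 0.16 in first-actuated roots. The others had ground means below 3, where a fall could hardly show. These were 2.93 for THE1, 2.08 for CVY1, 1.87 for ANX1, 1.47 for ANX2 and 1.15 for LRE.

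Among 18 other GH9 endoglucanase genes limma called 0 in any comparison, with 4 at an unadjusted p under 0.05 in first-actuated against ground roots, and among 31 other serine carboxypeptidase-like genes it called 0, with 7. Of all genes, 16.9% had an unadjusted p under 0.05 in that comparison. The ranges in first-actuated minus ground were -0.58 to 0.45 and -1.35 to 0.30. Many genes of both families lay below a ground mean of 3, where a fall could hardly show. Of those above it, GH9C2, GH9B7 and GH9B10 differed by -0.53, -0.58 and -0.33, and GH9B8 and GH9B13 by 0.45 and 0.061 in first-actuated roots. Also above it, scpl25, scpl26, scpl29, scpl35, scpl44 and scpl50 differed by -1.35 to -0.45 in first-actuated and -1.36 to -0.50 in last-actuated roots. Ground replicate 2 was the lowest ground array for each of these. The other scpl genes above it, scpl28, SCPL34, scpl48 and SCPL49, differed by -0.18 to 0.30 and -0.24 to 0.12. In the gibberellin pathway 6 of 28 listed genes were measured, and of the 5 besides SLY1 limma called 0, with 1 at an unadjusted p under 0.05 in first-actuated against ground roots. That gene was GID1A, for a gibberellin receptor, at 4.61 ± 0.24 on the ground, 4.14 ± 0.068 in first-actuated and 4.49 ± 0.27 in last-actuated roots (adjusted p = 0.155). SLY2, the closest relative of SLY1, had a difference of 0.16 at a low ground mean of 2.21. For abscisic acid, XERICO was the 1 measured gene of 38 listed.

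In a jasmonate list 4 of 31 genes were measured, all of the dioxygenase group of AT2G38240. JRG21, of that group, fell by 0.69 on the log2 scale in first-actuated against ground roots (limma, adjusted p = 0.00996), and the call was lost without first-actuated replicate 3 (0.0537). Its last-actuated minus ground difference was -0.36, and its ground mean of 2.99 was just short of the minimum of 3. AT5G05600, also of the group, had a difference of 0.24 (limma, adjusted p = 0.323).

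**Figure D4:**
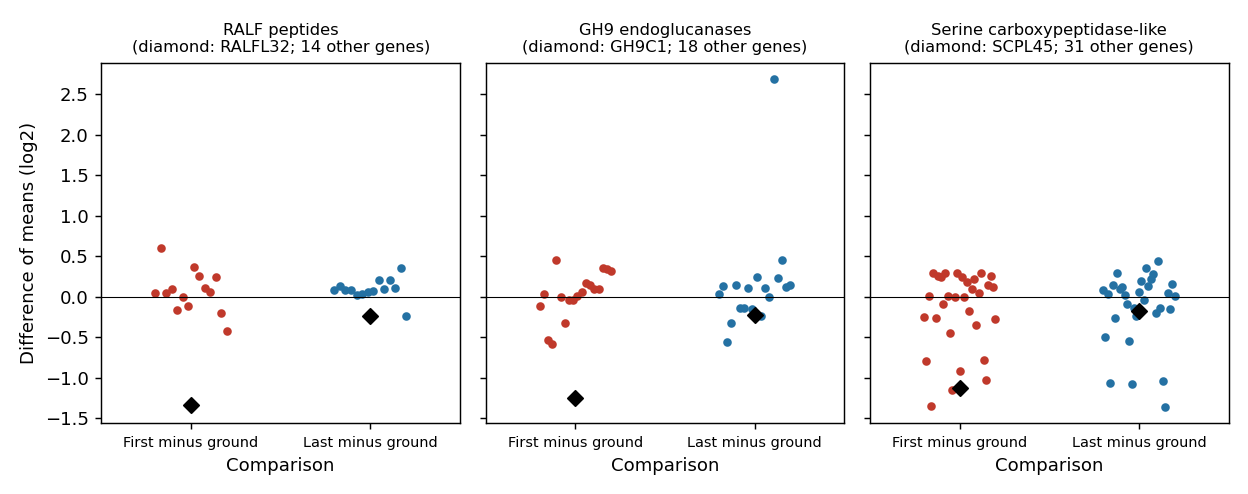
Difference of tube means from the ground mean (log2) for the measured genes of 3 families with a member in the set: RALF peptides, GH9 endoglucanases and serine carboxypeptidase-like proteins. Points are the other genes of each family (14, 18 and 31), first-actuated in red and last-actuated in blue, and the black diamond is RALFL32, GH9C1 or SCPL45. The diamonds of RALFL32 and GH9C1 lie below all their relatives in the first-actuated column, and that of SCPL45 lies within the spread of its own. The diamonds were chosen for their fall, and many relatives lay below a ground mean of 3, where a fall could hardly show.

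Lists for light signalling, hypoxia, sugar starvation, histones and iron deficiency were also counted, and none of their genes was a member. In the light signalling list 2 of 22 genes were measured. HYH, a transcription factor related to HY5, fell by 0.83 in first-actuated roots (limma, adjusted p = 0.00956) from 3.20 ± 0.23 to 2.37 ± 0.19, a call lost without first-actuated replicate 3 (0.0530). It was no member because its last-actuated mean of 2.75 ± 0.12 stayed 0.46 below the ground. PIF7 had a difference of 0.085 at a ground mean of 1.65, below the median gene mean. In the core hypoxia list, with 6 of 17 genes measured, limma called 2 higher and 2 lower in first-actuated than in ground roots, where 3.02% and 1.67% of all genes were called. The 2 lower genes were AT4G39675 and AT4G27450, which the rule had left out. AT3G03270 rose by 1.15 (adjusted p = 3.71e-04).

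Of 10 measured core histone genes of 37, limma called 0, with 1 at an unadjusted p under 0.05 in first-actuated against ground roots. The lowest p values were those of AT3G53650 and HTB2, both for histone H2B, with differences of 0.34 and -0.42. Their ground means were 1.57 and 4.16, the former below the median gene mean. In the iron deficiency list 4 of 19 genes were measured. AT3G12900, for an enzyme of coumarin synthesis, rose by 1.48 in first-actuated roots (limma, adjusted p = 5.35e-04), and AT1G47395, for a small peptide of the iron response, had a difference of -0.40 (adjusted p = 0.238). The ground mean of AT1G47395 was 1.56, below the median gene mean. Of the list of sugar starvation genes, 0 of 17 had a single-gene probe set.

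Of the 4 genes left out, AT4G39675 had a larger difference than any member, at 3.89, 4.11 and 4.18 on the ground, 2.23, 2.17 and 1.97 in first-actuated and 4.71, 4.26 and 4.39 in last-actuated roots. AT4G27450, like AT4G39675 a hypoxia-responsive gene, averaged 7.82 ± 0.11, 6.99 ± 0.19 and 8.0 ± 0.17. AT1G49570, for a class III peroxidase, was at 5.14 ± 0.096, 3.75 ± 0.011 and 5.10 ± 0.33, and AT3G28900 at 5.19 ± 0.20, 4.34 ± 0.25 and 5.37 ± 0.12.

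Around the limit of -0.8, AT5G45480 (-0.80), AT5G16120 (-0.81), AT2G43610 (-0.81) and AT5G57840 (-0.82) were just inside. AT2G07751 (-0.79), AT5G47210 (-0.79), AT4G22000 (-0.79) and CSLC5 (-0.78) met all other conditions and were just outside. Of 258 probe sets that met the size of the fall and the minimum ground mean, 93 had all first-actuated values below the other 6. In 36 of these the last-actuated mean was also lower than the ground mean by 0.4 or more, and in 2 it was higher by that much.

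The members lay on all 5 nuclear chromosomes, with 16, 8, 6, 6 and 13 genes on chromosomes 1 to 5, beside the 2 of the chloroplast genome. Chromosomes 1 to 5 thus held 31.4%, 15.7%, 11.8%, 11.8% and 25.5% of the members. Their shares of the single-gene probe sets were 25.8%, 15.5%, 20.4%, 14.8% and 22.9%. For the chloroplast genome the shares were 3.92% of members, from 2 genes, and 0.38% of probe sets. AT1G56210 and AT1G56220 were direct neighbours among protein-coding genes. AT1G56220 was at 7.50, 7.64 and 7.83 on the ground, 6.75, 7.0 and 6.70 in first-actuated and 7.68, 7.78 and 7.68 in last-actuated roots. XERICO and AT2G04280 lay 2 genes apart. Of 62 measured direct neighbours that were no members, limma called 1 in first-actuated against ground roots, against 4.69% of all genes, and their median difference was -0.078. The 1 called gene, named after its values were seen, was AT4G11210, another dirigent gene beside AT4G11190. It was at 2.35, 2.55 and 2.59 on the ground, 1.63, 1.71 and 1.94 in first-actuated and 2.16, 2.78 and 2.56 in last-actuated roots (limma, -0.73, adjusted p = 0.0314). That call was lost in 7 of 9 fits without 1 array, and whether probes of these related genes share targets was not tested.

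Membership depended on single arrays for most of the set. With 1 array left out at a time, 11 of the 51 met the rule in all 9 cases. These were AT3G27030, AT1G12080, MYBC1, AT1G38131, AT3G54880, AT2G04280, AT1G09460, AT5G27920, AT1G44608, AT2G38240 and SLY1. Without ground replicate 2, 45 genes met the rule, of which 29 were among the 51, and without ground replicate 1 it was 57 with 38 shared. Without any other single array 40 to 49 of the 51 still met it. RALFL32, XERICO and AT4G39780 met it in 7 of the 9 cases, and GH9C1 and psbM in 8.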

How the data were processed

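The deposited values are log2 expression levels from 9 arrays hybridized with biotin-labelled DNA, 3 for each of 3 tubes. The authors made them with RMA, per the submitters' processing notes, which also list the build TAIR10, R 4.0.0, limma and oligo. Further settings were not stated in the sources at hand. Precision is limited by the number of arrays, and detection calls were not used here.

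Of 38408 probe sets, 16722 had 1 gene name in the platform annotation, 759 had several and 20927 were not listed. Names of 16574 matched the gene table (TAIR10.1), which served for names and gene order alone. No sequence table was given, so no sequence is shown and the planned search for promoter motifs was not run.

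The rule was applied to single-gene probe sets. The background fit used limma 3.58.1 in R 4.3.3 with the 3 tubes as groups, 1 probe set a gene (the highest mean), residual degrees of freedom of 6 (prior 3.89) and p-values adjusted by Benjamini-Hochberg across 16548 genes. The pipeline was tested on simulated data. Python 3.11.15, pandas 2.3.3 and matplotlib 3.10.9 drew the figures. Cytosolic ribosomal protein genes were listed by locus.

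The members and lists were chosen with earlier results of these data known. Named genes are the 30 members with the largest differences, those around the limit, genes left out, and up to 2 other genes of lowest p from each of the lists for light signalling, hypoxia, sugar starvation, histones and iron deficiency. The lists for RALF peptides and receptors, endoglucanases, carboxypeptidases, gibberellin, abscisic acid, jasmonate and chloroplast genes were written after the members were known. A replicate block, other normalizations, filters, moderation, thresholds, 2-group fits and fits without each array were tried.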

Additional observations from a re-analysis of the deposited data

How the results depend on the processing

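The 51 members became 22 at a limit of -1.0 and 120 at -0.6, and 45 to 62 without 1 array. Other limits on the last-actuated or ground mean, other normalizations and no demand for separation gave 37 to 65. The median difference of -0.97 became -0.93 after another quantile normalization and -0.99 to -0.92 without 1 array. The fits called 776 genes in first-actuated against ground, 151 in last-actuated against ground and 371 in first-actuated against last-actuated roots. These counts became 419 and 28 for the first 2 comparisons with only the 2 groups compared, and 1306, 228 and 596 with all probe sets tested. Without 1 array they ranged from 384 (without first-actuated replicate 3) to 1253 (without ground replicate 2), from 53 (without last-actuated replicate 3) to 508 (without ground replicate 2) and from 100 (without first-actuated replicate 3) to 495 (without ground replicate 1). The cause was not tested. With the replicate number as a block the counts were 700, 109 and 303. Deviations of same-numbered arrays correlated by -0.11 to 0.070, so the numbers are not shown to pair the samples. The other settings stayed within 1.5 times these counts. Levels near the lower end of the scale have no background measure beside them.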

Other observations

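With the same limits turned upward and the same genes and gene class left out, 120 genes stood higher in first-actuated roots than in both other tubes, and 51 stood lower (55 before any were left out). With the flight tubes exchanged, 13 genes stood lower in last-actuated roots, and 77 stood at least 0.8 below the ground in first-actuated roots with a last-actuated mean within 0.4 of the first-actuated mean and all ground values above the other 6.

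Among probe sets with no gene name in the annotation used here, 159 of 20927 met the same conditions, and among single-gene probe sets 55 of 16722. Of those with a ground mean of at least 3, these were 2.02% of 7862 and 0.897% of 6132. The 159 lay below the ground by a median of 0.97, with a largest difference of -2.06. They are not analysed further here.

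GH9B15, an endoglucanase gene related to GH9C1, was at 6.06 and 5.63 on last-actuated replicates 1 and 3 and at 1.80 on replicate 2, while the 6 other arrays lay between 1.74 and 2.03. It was chosen after its values were seen.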
